A study of Mus musculus with 10 samples.

Results

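T cell receptor β chains (TRB) of CD103hi dermal T cells from Tcrd-/- mice (B6.129P2-Tcrdtm1Mom/J, whose deleted Tcrd locus leaves them without γδ T cells) were set against those of T cells sorted from the epidermis of such mice. The CD103hi sample was 1 library of living CD45+CD3+TCRβ+CD103hi cells from ear skin dermis, and the epidermal samples were 3 libraries (A, B and C) of living CD45+CD3hiTCRβhi cells from ear skin, titled DETC, the name of the dendritic epidermal T cells that fill this site in wild-type mice. These 4 samples were chosen by their titles, out of 10 in the series. They held 457 clonotypes in the CD103hi library and 318, 435 and 72 in epidermal A, B and C, together 1282 of the 29481 TRB clonotypes in the series. Values of the CD103+ dermal, bulk dermal A and B and lymph node libraries of Tcrd-/- mice, and of dermal cells of WT mice (C57BL/6-N/Crl), stand beside them. All were 5′ RACE libraries of Tcrb transcripts. Each sample pooled 5 to 18 animals, so no value per animal exists, the ages are not given in the sources used here, and the CD103hi sort has no replicate. In 1 against 3 libraries the exact permutation test cannot go below p = 0.25. Fewer cells with a chain and less RNA per cell cannot be told apart in reads from pooled cells. CD103 itself, the integrin αE chain, is not measured by these libraries, so the sort can be checked only for its receptor locus, which was TRB in all 4.

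A β chain is assembled from a V, a D and a J segment. The bases lost from the segment ends (trimming) and those added between them without a template (inserted nucleotides, or N additions) form the middle of the CDR3, the loop that meets the ligand. Terminal deoxynucleotidyl transferase adds these bases and is scarce in fetal life, so fetal chains are known for few insertions, short loops and joins at short stretches of shared sequence. CD103 binds E-cadherin and is known on T cells that reside in epithelia.

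The CD103hi library held 31823 reads, the fewest of the TRB libraries. Epidermal A held 46114 reads, B 51359 and C 43891. A clonotype here is a nucleotide CDR3 with its V and J names. Most clonotypes were small: 208 of the 457 CD103hi clonotypes had a single read, whereas the 178 with at least 10 reads held 98.5% of its reads. Clonotypes of at least 10 reads numbered 139 in epidermal A, 180 in B and 26 in C. The library names were used to place the CD103hi, CD103+ and epidermal B libraries in the same library set. The labels do not say whether such a set is a sequencing run. Values against epidermal B are thus within that set and those against A and C are across sets. Sharing with epidermal B is given apart.

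The 5 largest CD103hi clonotypes by reads are printed here from the first cysteine codon to the last phenylalanine codon, in capitals where a base matches neither the V nor the J reference end, and so belongs to D or was inserted.
TRBV12-2 TRBJ1-4 (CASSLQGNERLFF): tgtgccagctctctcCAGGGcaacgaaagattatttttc
TRBV1 TRBJ2-5 (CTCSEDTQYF): tgcacctgcagtgaagacacccagtacttt
TRBV12-2 TRBJ2-1 (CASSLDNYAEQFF): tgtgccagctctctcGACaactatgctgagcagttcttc
TRBV1 TRBJ1-4 (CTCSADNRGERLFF): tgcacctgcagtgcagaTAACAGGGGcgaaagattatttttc
TRBV20 TRBJ2-5 (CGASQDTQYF): tgtggtgctagccaagacacccagtacttt
They took 7.04, 4.36, 4.14, 2.51 and 2.25% of CD103hi reads in that order. In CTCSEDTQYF and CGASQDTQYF no capital remains, so V and J account for every base with no D. The capitals of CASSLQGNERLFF and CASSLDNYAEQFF are D stretches with 0 inserted bases by reference junctions, whereas the deposited positions give 2 and 1 inserted bases. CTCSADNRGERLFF holds 7 D bases and 2 inserted by the reference, and 1 inserted by deposited positions. None of the 5 was found in an epidermal library, where a count of 0 allows up to 0.00651, 0.00584 and 0.00684% of reads in A, B and C (3 counts, counting error only, since PCR copies are not separate molecules).

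The share of CD103hi chains free of inserted nucleotides lay within the epidermal range and above that of the other dermal libraries. By the deposited segment positions, 45.1% of CD103hi clonotypes had none (206 of 457; Wilson 95% interval 40.6 to 49.7%). The epidermal values were 46.2% in A, 46.4% in B and 37.5% in C, with intervals of 40.8 to 51.7, 41.8 to 51.1 and 27.2 to 49.0%. The CD103hi value thus lay inside the epidermal range, 1.69 percentage points from the mean of 43.4% ± 5.10 (SD, n = 3), with an exact two-sided permutation p = 1. The share was 31.1% in CD103+ cells, 18.3% in dermal A, 18.2% in dermal B, 20.8% in WT dermis and 17.4% in lymph node. Within the shared library set, CD103hi stood at 45.1% and epidermal B at 46.4%, with CD103+ at 31.1%.

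**Figure D1:**
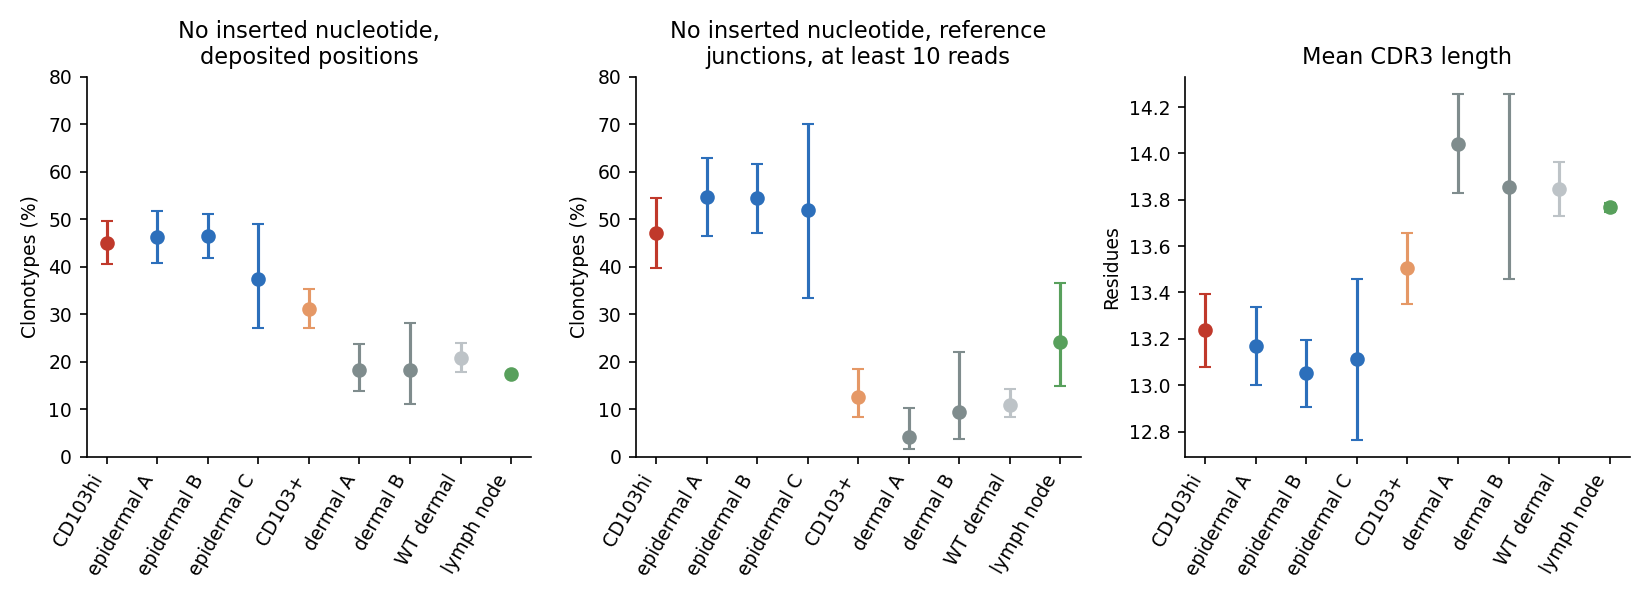
Share of clonotypes without an inserted nucleotide by deposited positions (left, %) and by reference junctions among clonotypes of at least 10 reads (middle, %), with Wilson 95% intervals, and mean CDR3 length (right, residues, with a 95% normal interval over clonotypes; axis not from 0). CD103hi (red) is within the range of the 3 epidermal libraries (blue) on the left (45.1%), below their values in the middle (47.1% against 52.0 to 54.7%) and above them on the right (13.24 against 13.05 to 13.17 residues), and its intervals overlap theirs in each panel.

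The deposited V positions often ran past the bases that match the V reference: in 38.6% of CD103hi clonotypes and in 29.0, 38.0 and 19.7% of those in epidermal A, B and C. Junctions were therefore also read from exact matches to reference V, D and J sequences. The share without insertions was then 31.4% in CD103hi and 31.4, 28.2 and 28.2% in epidermal A, B and C. It was 17.6% in CD103+, 11.3% in dermal A, 10.8% in dermal B, 8.46% in WT dermis and 7.58% in lymph node. Among clonotypes of at least 10 reads, where sequence errors weigh less, this reference share was 47.1% in CD103hi (82 of 174; Wilson interval 39.9 to 54.5%), just under the 54.7, 54.5 and 52.0% of epidermal A, B and C. WT dermis had 11.01%, CD103+ 12.6%, and the bulk dermal libraries 4.21% (A) and 9.52% (B). By each of these readings CD103hi lay above all 4 other dermal libraries. Weighted by reads, the deposited positions put CD103hi below the epidermal libraries (47.7% against 69.2, 54.7 and 56.9%), while reference junctions put it among them (61.6% against 66.9, 58.4 and 48.4%). The mean number of inserted nucleotides was 1.62 in CD103hi clonotypes and 2.73, 1.66 and 2.00 in epidermal A, B and C, a difference from the epidermal mean of -0.51 (exact permutation p = 0.5). It was 3.98 in dermal A and 2.51 in dermal B. CD103+ with 2.37 and WT dermis with 2.57 lay, like dermal B, inside the epidermal range. By reference junctions the mean was 4.94 in CD103hi and 5.75, 5.51 and 3.25 in epidermal A, B and C. Dermal B had 4.96 and lymph node 4.12 by that reading. Among clonotypes of at least 10 reads CD103hi was instead above all 3, with 1.36 against 0.923 to 1.27, and by reference junctions with 1.98 against 0.978 to 1.60 (exact p = 0.25 for both, the smallest possible). Dermal A and B had 3.55 and 2.48 at 10 reads or more, and 4.80 and 3.71 when these were read from the reference.

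Joins of V directly to J, with every base accounted for by the 2 segments and no D, were read from the reference matches and were examined after the largest clonotypes had been seen. They made up 2.72% of CD103hi clonotypes (11 of 404) and 2.31, 0.775 and 1.41% of those of epidermal A, B and C, with overlapping intervals. By reads they made up 12.6% in CD103hi and 1.82, 0.841 and 1.47% in epidermal A, B and C. A few clonotypes made up this value: 4 of the 8 largest CD103hi clonotypes were of this kind and held 10.5% of its reads, whereas 0 of the 8 largest in each epidermal library were.

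CD103hi loops were close to epidermal loops in mean length, with another most common length. The mean was 13.24 residues in CD103hi clonotypes, against 13.17, 13.05 and 13.11 in epidermal A, B and C, 13.50 in CD103+, 14.04 in dermal A and 13.86 in dermal B. The CD103hi mean was 0.126 residues above the epidermal mean of 13.1 ± 0.0596 (SD, n = 3), outside the epidermal range, with an exact permutation p = 0.25, the smallest this design allows. Without TRBV5 the difference was 0.0411 residues. By reads the mean was 12.77, within the epidermal range of 12.59 to 13.12. In each epidermal library, loops of 13 residues were the most common by clonotypes, at 28.6, 35.4 and 38.9% in A, B and C. In CD103hi, 14 residues led with 32.6%, and 13 residues came next with 21.4%. By reads 13 residues led in CD103hi too, with 30.3% against 24.9% for 14. Loops of 14 residues were 24.2, 17.7 and 23.6% of epidermal A, B and C. They were 24.0% of CD103+, 22.6% of dermal A, 25.97% of dermal B, 29.6% of WT dermal and 29.9% of lymph node clonotypes. By clonotypes 14 residues also led in CD103+, WT dermis and lymph node, while 15 led in dermal A and B. The CD103hi share of 14-residue loops was 32.0% among clonotypes of at least 10 reads and 32.8% without TRBV5, close to the value over all clonotypes. Loops of 15 residues made up 11.8% of CD103hi clonotypes and 12.6, 12.2 and 11.1% of epidermal ones, against 28.9% of dermal A and 27.3% of dermal B.

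**Figure D2:**
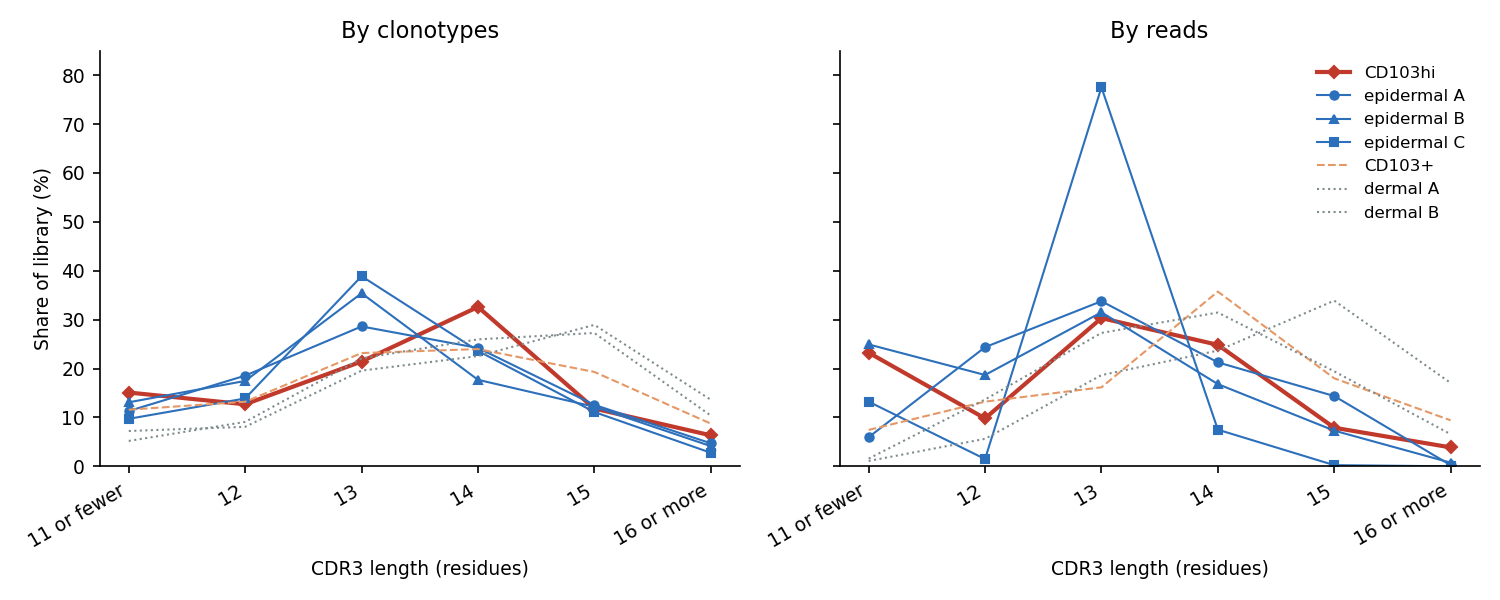
CDR3 length classes as a share of clonotypes (left) and of reads (right), in %, for CD103hi (red), the 3 epidermal libraries (blue), CD103+ (orange, dashed) and bulk dermal A and B (grey, dotted). By clonotypes CD103hi peaks at 14 residues with 32.6% and the epidermal libraries at 13, and all 4 lie below bulk dermis at 15.

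By deposited positions a mean of 1.95 bases of V were missing in CD103hi clonotypes, against 2.72, 2.504 and 2.37 in epidermal A, B and C and between 2.48 and 2.92 in the other 4 skin libraries. The difference from the epidermal mean was -0.58 bases (epidermal SD 0.178, n = 3; exact permutation p = 0.25, the smallest possible). By reference matches over all clonotypes the order was lost, with 4.04 in CD103hi inside the epidermal range of 3.18 to 4.66. Among clonotypes of at least 10 reads it returned by reference matches as well, with 2.23 in CD103hi against 2.504 to 2.8 in epidermis. J trimming was 2.91 bases in CD103hi and 3.42, 3.04 and 3.39 in epidermal A, B and C (difference -0.37, p = 0.25 by the same exact test). By reads J trimming was 3.35 in CD103hi, inside the epidermal range of 3.17 to 4.03, so only the V side kept its place by reads (1.26 against 1.77 to 2.54). Within single V segments, by deposited positions, CD103hi was not below all 3 for TRBV5, TRBV1, TRBV12-2, TRBV13-2 or TRBV17. TRBV5 had 1.31 against 1.6, 0.4 and 2.5 in epidermal A, B and C. For TRBV13-3 CD103hi was below all 3 (1.76 against 3.16, 2.14 and 3), as without TRBV5 (2.11 against 2.78, 2.62 and 2.36). Whether V segment use bears on V trimming was not tested.

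In V segment use the widest gap between CD103hi and epidermis, in share of clonotypes, was that of TRBV5. TRBV5 took 19.9% of CD103hi clonotypes (91 of 457; Wilson interval 16.5 to 23.8%) and 5.03, 5.06 and 2.78% of those of epidermal A, B and C. The other libraries had 5.89% (CD103+), 3.83% (dermal A), 11.7% (dermal B), 4.70% (WT dermis) and 5.52% (lymph node). The CD103hi share was thus above that of all 8 other TRB libraries. It was 19.7% among clonotypes of at least 10 reads (35 of 178), against 5.04, 4.44 and 7.69% in epidermal A, B and C. By reads TRBV5 took 16.6% in CD103hi and 1.66, 5.38 and 12.4% in epidermal A, B and C, where C drew on 2 clonotypes. In the GRCm38 annotation TRBV5 (ENSMUSG00000076465.2) lies on chromosome 6 from 41062332 to 41062803.

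The test across segments did not pass TRBV5 or any other V segment. In edgeR's quasi-likelihood test on clonotype counts over the 7 Tcrd-/- skin libraries, with the lone CD103hi library assumed to vary like the other groups, 0 of 21 TRBV segments (0%) had a Benjamini-Hochberg adjusted p under 0.05, 2 had an unadjusted p under 0.05, and DESeq2 called 0 (1 at an unadjusted p under 0.05). TRBV5 had a log2 difference of 2.10 (SE 0.72) with an adjusted p = 0.106 in edgeR. The call changed with the settings: edgeR's newer version of the fit passed TRBV5 with an adjusted p = 0.0478 (1 of 21 segments, 4.76%), as did clonotypes of at least 2 reads with 0.0467 (1 of 20, 5%). With the library set as a term TRBV5 did not pass. Its log2 difference was then 1.97 (SE 1.36), from a fit with 1 residual degree of freedom.

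**Figure D3:**
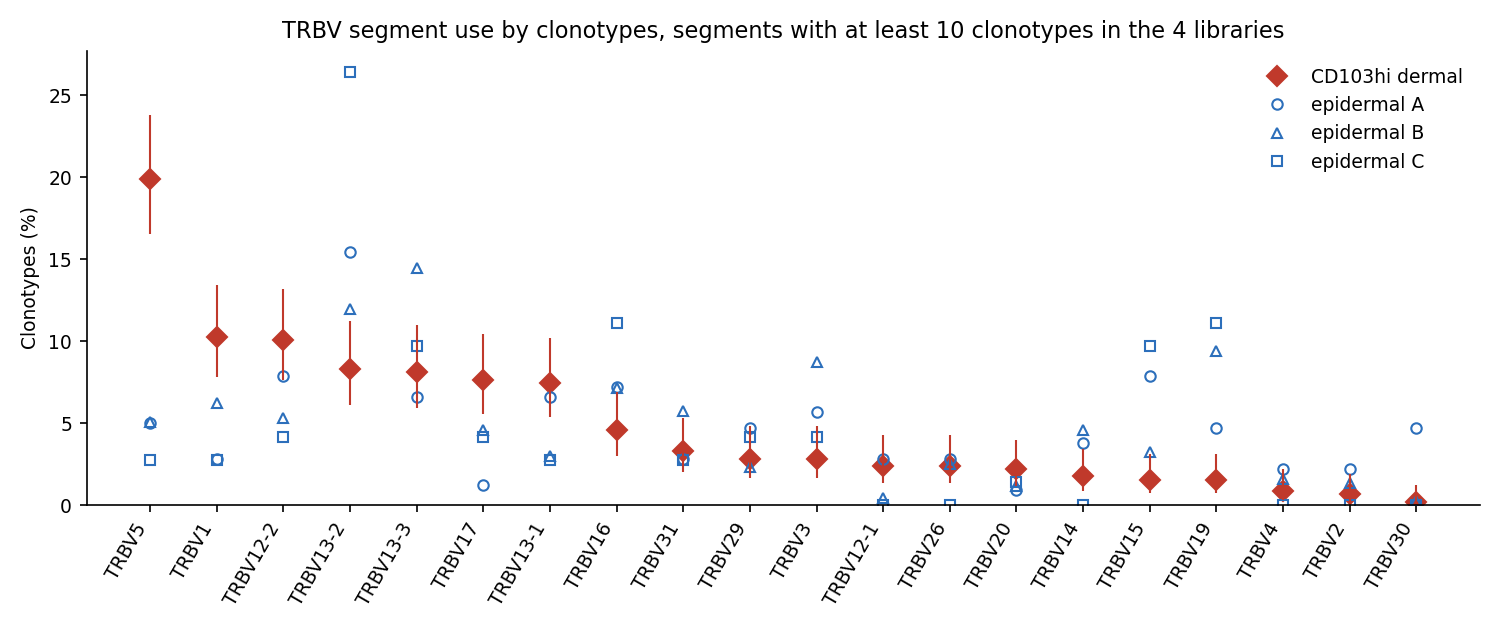
Share of clonotypes (%) by TRBV segment in CD103hi (red diamonds, with Wilson 95% intervals) and in epidermal A (circles), B (triangles) and C (squares), for segments with at least 10 clonotypes in the 4 libraries. TRBV5 stands highest in CD103hi with 19.9%, above the 3 epidermal values of 2.78 to 5.06%.

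The TRBV5 chains of CD103hi used 10 J segments, and TRBJ2-3 was the most common with 20 of the 91 clonotypes, ahead of TRBJ1-3 with 13 and TRBJ2-7 with 12. The largest of them held 1.58% of reads. Of the 91, 45.1% had no inserted nucleotide by deposited positions (Wilson interval 35.2 to 55.3%), the same as the 45.1% of the other CD103hi clonotypes. By reference junctions the share was 27.5% for TRBV5 and 32.4% for the others, so by neither reading was it lower without TRBV5. In epidermal A, 14 of 16 TRBV5 clonotypes had none by deposited positions, and in B 7 of 22. By reference junctions the TRBV5 shares of epidermal A, B and C were 46.7, 40 and 50%, all above CD103hi, where C held 2 TRBV5 clonotypes.

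Other V segments differed in both directions, each by less than the test's threshold. Of the 20 segments with at least 10 clonotypes in the 4 libraries, 6 were above and 5 below all 3 epidermal values in CD103hi (11 of 20, 55%), and 9 lay between them. A library like the 3 others would also often be lowest or highest of the 4, so this count alone shows no difference. TRBV1 took 10.3% of CD103hi clonotypes against 2.83, 6.21 and 2.78% in epidermal A, B and C, TRBV12-2 10.1% against 7.86, 5.29 and 4.17%, and TRBV17 7.66% against 1.26, 4.60 and 4.17%. All 3 were also above the epidermal values by reads. TRBV13-2 took 8.32% against 15.4, 11.95 and 26.4%, TRBV15 1.53% against 7.86, 3.22 and 9.72%, and TRBV16 4.60% against 7.23, 7.13 and 11.1%. These 3 were below the epidermal values by reads as well. TRBV19 took 1.53% against 4.72, 9.43 and 11.1% (edgeR log2 difference -2.36, SE 1.01, adjusted p = 0.242), and without epidermal A its adjusted p was 0.0464. By reads TRBV19, at 0.566% in CD103hi, lay within the epidermal range. TRBV13-3, with 8.10%, lay within the epidermal range of 6.60 to 14.5%. TRBV30 had 1 clonotype in CD103hi and 15, 1 and 0 in epidermal A, B and C, so only A had more than 1.

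The TRBV12 family took 12.5% of CD103hi clonotypes and 10.7, 5.75 and 4.17% of those in epidermal A, B and C. The TRBV13 family took 23.9% against 28.6, 29.4 and 38.9%, below all 3, although TRBV13-1 lay above them (7.44% against 6.60, 2.99 and 2.78%) and TRBV13-3 within. Segments that mucosal-associated invariant T (MAIT) cells are known to favour, TRBV19 and TRBV13-3, together took 9.63% in CD103hi against 11.3, 23.9 and 20.8%. By reads they took 8.26% in CD103hi, within the epidermal values of 5.24, 25.1 and 7.53%. The segments that natural killer T (NKT) cells favour, TRBV13-2, TRBV29 and TRBV1, took 21.4% of clonotypes against 23.0, 20.5 and 33.3%, inside the epidermal range, with TRBV1 above it, TRBV13-2 below it and TRBV29 within. These segments are used by conventional T cells too, and the α chains that define both cell types were not measured.

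J segment use was closer to the epidermis than V use, and closer to every other TRB library as well. In edgeR, 0 of 11 TRBJ segments (0%) passed, 0 had an unadjusted p under 0.05, and DESeq2 called 0 (0 unadjusted as well). Of these 11, 3 lay outside the epidermal range (27.3%), all above it, and 8 lay within. TRBJ2-7 was the most common in CD103hi with 17.9%, against 21.7, 17.2 and 23.6% in epidermal A, B and C. TRBJ1-4 took 3.94% against 2.20, 0.460 and 2.78%, TRBJ1-5 3.94% against 2.83, 1.61 and 1.39%, and TRBJ2-3 12.7% against 5.97, 4.14 and 11.1%. The fourth by size of ratio, TRBJ1-2, took 3.06% against 5.35, 2.99 and 6.94%. TRBJ2-1 took 12.04% against 21.7, 21.1 and 6.94%. It passed edgeR's test without epidermal C (log2 difference -0.83, SE 0.119, adjusted p = 0.0382), the epidermal library in which it was low. The TRBJ1 cluster as a whole took 29.98% of CD103hi clonotypes and 24.2, 20.9 and 29.2% of epidermal ones.

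Similarity of use was summarised by the Morisita-Horn index, which is 1 for equal use and 0 for none in common. For V segments the index of CD103hi was 0.704 with epidermal A, 0.723 with B (the same library set) and 0.551 with C, below all 3 indices between epidermal libraries (0.854 for A and B, 0.845 for A and C, 0.812 for B and C). With the other Tcrd-/- libraries it was 0.753 for CD103+, 0.637 for dermal A, 0.808 for dermal B and 0.756 for lymph node. Without TRBV5 the mean index with the epidermis was 0.753 against 0.838 between epidermal libraries, so the difference went from -0.178 to -0.0857. For J segments the index was 0.926, 0.883 and 0.938 with epidermal A, B and C, among the epidermal indices of 0.9495, 0.863 and 0.770. With CD103+, dermal A, dermal B, WT dermis and lymph node the J index was 0.951, 0.956, 0.934, 0.976 and 0.973. For V and J together the index was 0.421, 0.464 and 0.310, against 0.582, 0.459 and 0.361. With the same other libraries it was 0.563, 0.421, 0.401, 0.520 and 0.581, so J and V-J use showed no particular likeness to the epidermis. Epidermal C, with the lowest indices for V and for V-J pairs, held 72 clonotypes. By reads the gap in V use was smaller (0.490 against 0.552 on average), and the indices overlapped.

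**Figure D4:**
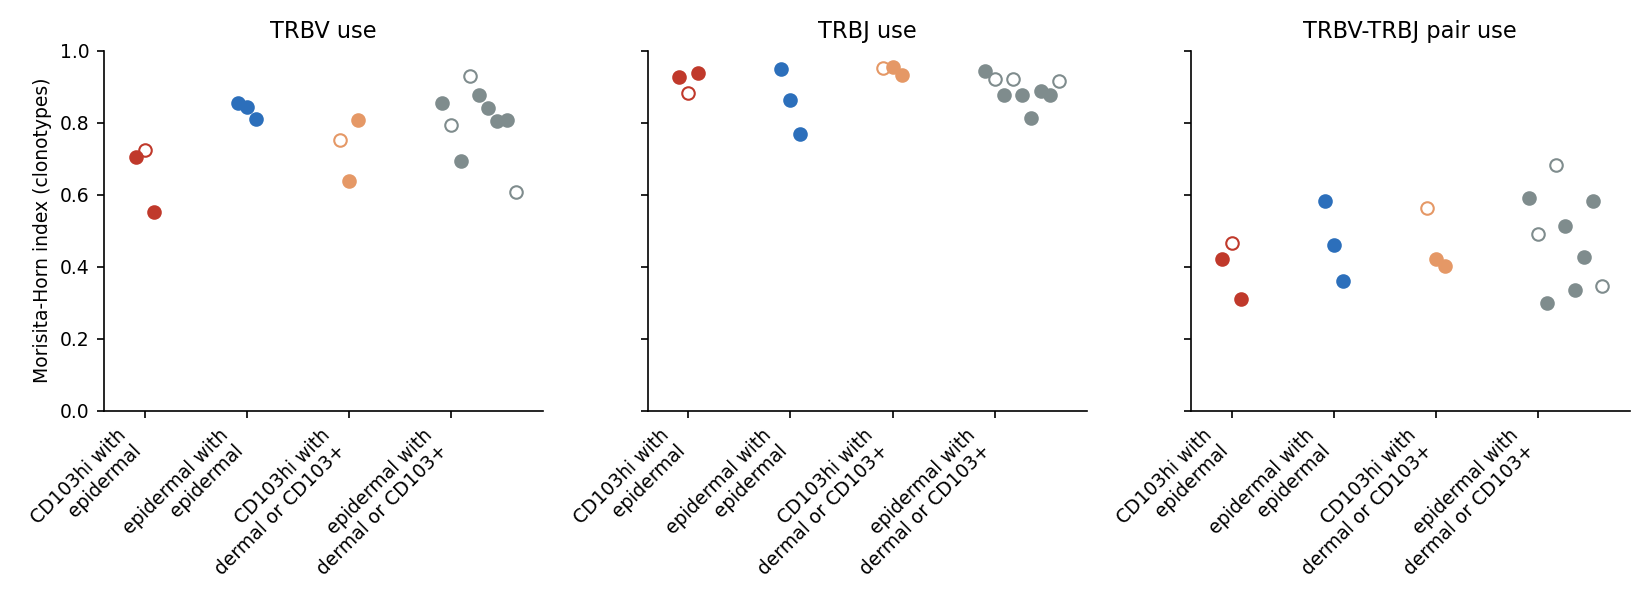
Morisita-Horn index of segment use by clonotypes (y axis, no unit) for TRBV, TRBJ and V-J pairs, where each point is a pair of libraries and open points are pairs within a library set. For TRBV the 3 pairs of CD103hi with epidermis (0.551 to 0.723) lie below the 3 epidermal pairs (0.812 to 0.854), and for TRBJ and V-J pairs the 2 ranges overlap.

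By clonotypes, the commonest V-J pairs of CD103hi had few members in the epidermis. TRBV5 with TRBJ2-3 had 20 clonotypes in CD103hi (4.38%), and 0, 1 and 0 in epidermal A, B and C, but 6 in CD103+ and 6 of the 77 of dermal B. TRBV17 with TRBJ2-1 had 13 against 2, 1 and 0, TRBV5 with TRBJ1-3 13 against 0, 1 and 0, TRBV12-2 with TRBJ2-3 12 against 2, 0 and 0, and TRBV5 with TRBJ2-7 12 against 4, 2 and 1. These pairs were picked for being common in CD103hi, so their lower values elsewhere are a description. By reads 3 of the 5 were higher in an epidermal library than in CD103hi: TRBV12-2 with TRBJ2-3 took 4.94% of epidermal A against 0.525%, TRBV5 with TRBJ2-7 7.88% of epidermal C against 1.92%, and TRBV5 with TRBJ1-3 2.69% of epidermal B against 2.44%. TRBV5 with TRBJ2-3 took 4.31% of CD103hi reads and at most 0.00195% in an epidermal library, and TRBV17 with TRBJ2-1 2.60% against at most 1.34%. CD103hi used 130 pairs, of which 82 also occurred in epidermal A, 80 in B and 39 in C, out of 130, 107 and 50 used there.

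The loop interior, all residues but the first and last 4, was more hydrophilic in CD103hi than in each epidermal library. Mean Kyte-Doolittle hydropathy, where lower is more hydrophilic, was -1.34 in CD103hi clonotypes and -0.87, -1.18 and -0.95 in epidermal A, B and C. It was between -1.19 and -1.08 in the other 4 skin libraries, so CD103hi was the lowest skin library by this measure. The difference from the epidermal mean was -0.34 (epidermal SD 0.164, n = 3; exact permutation p = 0.25, the smallest possible), and within the library set the values were -1.34 and -1.18. By reads CD103hi (-1.50) was again below the epidermal values of -1.36 to -0.76. With TRBV5 left out of every library the difference from the epidermal mean was -0.27.

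By amino acid, 10 of 20 interior residues (50%) lay outside the epidermal range in CD103hi. A lone library no different from the epidermal ones would lie outside their range for about 50% of residues. Glutamine was 8.53% of interior residues, against 5.65, 6.50 and 5.41% in epidermal A, B and C. Leucine was 4.41% against 7.53, 5.13 and 5.68%. Glutamate was 4.66% against 3.52, 2.54 and 4.32%, threonine 5.16% against 5.95, 5.22 and 7.30%, asparagine 7.87% against 6.56, 6.72 and 7.84%, and alanine 8.66% against 9.36, 9.36 and 9.73%. By reads glutamine (8.68% against 6.00, 7.59 and 10.2%) and leucine (6.85% against 8.30, 4.91 and 11.4%) lay within the epidermal range. Among clonotypes of at least 10 reads threonine lay within it (5.23% against 4.73, 4.40 and 7.5%). In these 2 readings the others named stayed on the same side. TRBV5 chains such as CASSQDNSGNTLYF carry a glutamine from V bases directly after the first 4 residues, so it counts as interior. TRBV5 took 19.9% of CD103hi clonotypes and 5.03, 5.06 and 2.78% of those of epidermal A, B and C. How far TRBV5 use accounts for the shares of glutamine or other residues was not tested. Cysteine inside the loop was found in 3.50% of CD103hi clonotypes, 1.89, 4.37 and 5.56% of epidermal ones and 1.22% of CD103+ ones. Dermal A had 2.13% and dermal B 6.49%, the highest of these 7 libraries.

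A feature that CD103hi shared with epidermal A and B was a tryptophan followed by a glycine inside the loop, a choice made after the compositions were seen. The TRBD2 segment encodes this pair in the reading frame in which the capitals below are 2 codons, while TRBD1 lacks them (GRCm38 chromosome 6, 41542163 to 41542176 and 41533201 to 41533212).
TRBD2: gggacTGGGGGggc
TRBD1: gggacagggggc
The pair was present in 21.2% of CD103hi clonotypes (97 of 457; Wilson interval 17.7 to 25.2%), in 18.2 and 20.7% of those of epidermal A and B and in 8.33% of those of C. It was present in 6.91% of CD103+, 10.2% of dermal A, 5.19% of dermal B, 11.4% of WT dermal and 7.57% of lymph node clonotypes. Of the 97, 88 were assigned TRBD2. At 10 reads or more the shares were 21.9% in CD103hi, 24.5% in epidermal A and 11.54% in C. By reads CD103hi had 14.5%, between the 31.8 and 16.7% of epidermal A and B and the 5.76% of C. The other skin libraries had 2.09% (CD103+), 5.11% (dermal A), 13.1% (dermal B) and 9.84% (WT dermis) by reads, so dermal B was close to CD103hi.

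Identical chains were few. Between CD103hi and epidermal A, across library sets, 5 amino acid clonotypes (same V, J and CDR3) were shared, 3 of them with at least 10 reads in both. Those 3 are shown with capitals at bases that differ between the libraries.
TRBV5 TRBJ1-1 (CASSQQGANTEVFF), CD103hi and epidermal A: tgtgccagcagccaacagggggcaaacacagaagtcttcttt
TRBV5 TRBJ1-1 (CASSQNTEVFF), CD103hi and epidermal A: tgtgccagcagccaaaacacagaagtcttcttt
TRBV13-1 TRBJ2-1 (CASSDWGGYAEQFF), CD103hi: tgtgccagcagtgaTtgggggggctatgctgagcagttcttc
TRBV13-1 TRBJ2-1 (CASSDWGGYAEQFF), epidermal A: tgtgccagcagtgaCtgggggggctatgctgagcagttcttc
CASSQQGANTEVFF had 212 reads in CD103hi and 176 in epidermal A, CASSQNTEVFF 96 and 37, and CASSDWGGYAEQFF 51 and 132. Each had 0 inserted bases by both readings. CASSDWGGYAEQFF was thus the same protein chain from 2 nucleotide sequences. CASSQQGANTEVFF and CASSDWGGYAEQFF were found in no other TRB library, and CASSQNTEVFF elsewhere only with 1 read in lymph node. The other 2 were small in CD103hi: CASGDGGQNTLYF (TRBV13-2, TRBJ2-4) had 2 reads against 654 in epidermal A, and a TRBV12-2 TRBJ2-2 chain of 15 residues had 3 against 429. With epidermal C 2 were shared, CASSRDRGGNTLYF (TRBV17, TRBJ1-3) with 2 and 586 reads and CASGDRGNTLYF (TRBV13-2, TRBJ1-3) with 1 read in each. The latter had 706 reads in WT dermis, in the library set of epidermal C.

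Among epidermal libraries, A and B shared 3 chains, A and C 0, and B and C 0, beside the 5 and 2 of CD103hi with A and C. The chains shared with A held 1.14% of CD103hi reads and 3.10% of epidermal A reads. CD103hi shared 3 with dermal A and 0 with dermal B, both across sets, and 4 with WT dermis. With lymph node, also across sets and with 26693 clonotypes by far the largest library, it shared 20, which held 9.26% of CD103hi reads.

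Sharing inside the library set looked different. CD103hi and epidermal B shared 9 amino acid clonotypes, and in all 9 the smaller partner had at most 2 reads. In 8 of them 1 partner was a trace, with less than 1% of the read share found for that clonotype elsewhere in the library set. Most were large in epidermal B, such as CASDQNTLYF (TRBV29, TRBJ2-4) with 1283 reads there and 1 in CD103hi, and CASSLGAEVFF (TRBV14, TRBJ1-1) with 722 and 2. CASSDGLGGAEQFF (TRBV13-1, TRBJ2-1) went the other way, with 287 reads in CD103hi and 1 in epidermal B. No chain with at least 10 reads in both was shared with B, against 3 with A. CD103hi and CD103+ shared 31, of which 8 had at least 10 reads in both.

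Near-identical chains had the same V, J and length and 1 residue different. With epidermal A and C together, 22 of 245 pairs with the same V, J and length were 1 residue apart, or 89.8 per 1000 (Wilson interval 60.05 to 132). The rate was 88.4 with A (16 of 181) and 93.8 with C (6 of 64). Within the library set it was 65.2 with epidermal B (18 of 276; interval 41.6 to 101). Between epidermal libraries it was 77.6 for A and B, 29.9 for A and C and 25.6 for B and C. CD103hi reached 121 with dermal A (14 of 116), 58.8 with dermal B, 66.3 with WT dermis, 112 with CD103+ of the same set and 23.0 with lymph node. The intervals of CD103hi with each skin library overlapped. In all, 29 of the 371 distinct CD103hi chains had a neighbour in at least 1 epidermal library, 17 in A or C and 16 in B. Since pairs share chains, these intervals are too narrow. Some pairs with A set a chain held by both libraries against a variant of few reads. An example is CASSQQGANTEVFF (212 reads in CD103hi) with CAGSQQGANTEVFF (1 read in epidermal A). Among chains of at least 10 reads the rate with A and C was 113 per 1000 (6 of 53). It was then 78.7 between epidermal libraries, 240 with dermal A and B and 62.5 with WT dermis.

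**Figure D5:**
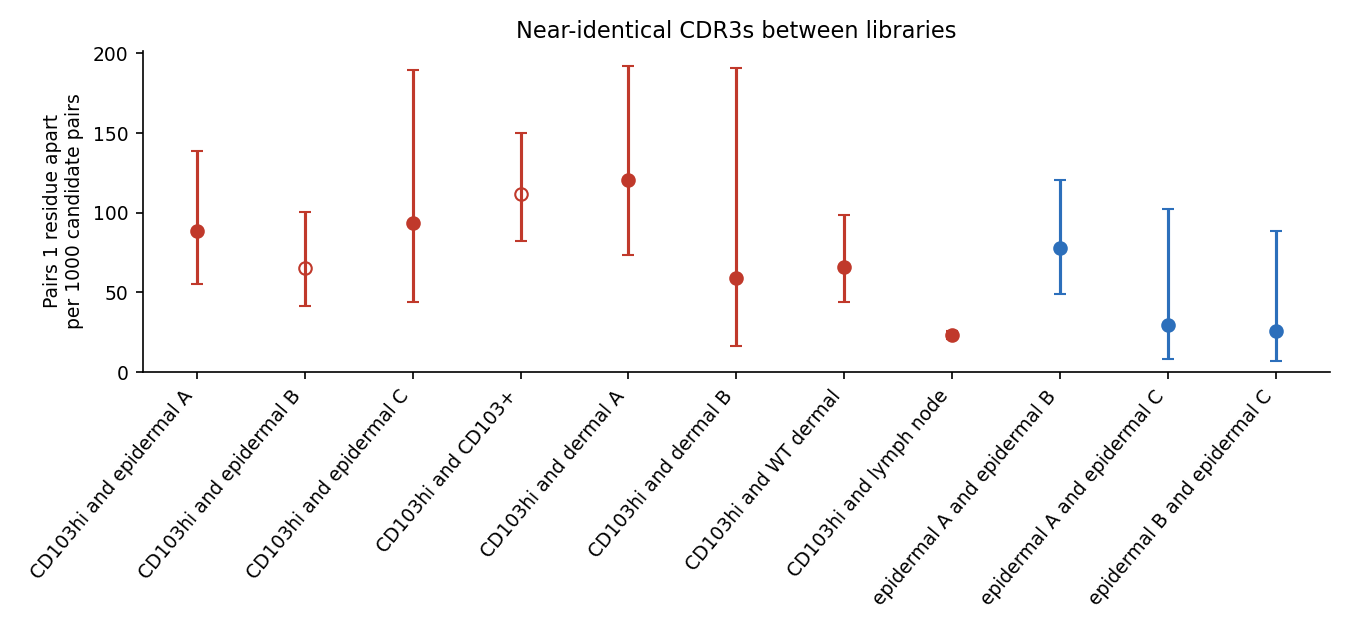
Pairs of chains 1 residue apart per 1000 pairs with the same V, J and length, with Wilson 95% intervals, for CD103hi with each other TRB library (red) and between epidermal libraries (blue); open points are pairs within a library set. CD103hi has 88.4 with epidermal A, 65.2 with B and 93.8 with C, beside 121 with dermal A and 58.8 with dermal B, and all these intervals overlap.

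The near-identical pairs named here had the highest lower read share of the 2 partners. In the tokens that follow, the CD103hi residue comes first, then its position counted from 1 at the first cysteine, then the epidermal residue. Pairs are shown with capitals at the bases that differ.
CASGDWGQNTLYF, CD103hi (TRBV13-2, TRBJ2-4): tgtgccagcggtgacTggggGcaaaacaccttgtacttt
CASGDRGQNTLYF, epidermal A: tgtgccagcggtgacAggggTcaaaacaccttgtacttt
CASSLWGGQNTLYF, CD103hi (TRBV12-2, TRBJ2-4): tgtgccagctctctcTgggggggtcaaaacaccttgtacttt
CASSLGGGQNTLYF, epidermal A: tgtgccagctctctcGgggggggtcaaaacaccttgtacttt
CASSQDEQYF, CD103hi (TRBV5, TRBJ2-7): tgtgccagcagccaagAtgaacagtacttc
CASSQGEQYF, epidermal C: tgtgccagcagccaagGtgaacagtacttc
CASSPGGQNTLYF, CD103hi (TRBV5, TRBJ2-4): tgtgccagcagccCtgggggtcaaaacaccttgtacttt
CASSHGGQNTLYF, epidermal B: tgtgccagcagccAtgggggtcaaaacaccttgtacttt
The first pair, W6R, had 137 reads in CD103hi and 720 in epidermal A. The second, W6G, had 59 and 21 reads, the third, D6G, 301 and 3460 reads, and the fourth, P5H, 239 and 363 reads. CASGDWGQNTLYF had further neighbours in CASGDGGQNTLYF of epidermal A (W6G, 654 reads), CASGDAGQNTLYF of epidermal B (W6A, 1157 reads) and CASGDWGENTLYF of epidermal B (Q8E, 555 reads). The pair with the highest share in both libraries across sets was a TRBV12-2 TRBJ2-1 chain of 15 residues (P5L, 492 and 2213 reads), and within the set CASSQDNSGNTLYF and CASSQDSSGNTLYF of TRBV5 and TRBJ1-3 (N7S, 503 and 1383 reads). A TRBV13-3 TRBJ1-1 pair of 15 residues with epidermal A (N10D, 103 and 44 reads) differed nearer the J end. Smaller pairs with epidermal A were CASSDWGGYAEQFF and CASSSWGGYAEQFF of TRBV17 (D5S, 6 and 616 reads) and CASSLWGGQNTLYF and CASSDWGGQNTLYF of TRBV12-2 (L5D, 59 and 7 reads). With epidermal B, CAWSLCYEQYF and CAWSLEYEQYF of TRBV31 were also paired (C6E, 140 and 210 reads). Of the 22 pairs with A and C, 20 differed by more than 1 base, 16 differed at positions 4 to 8, and 10 held a tryptophan. Those 10 were among the 16 pairs with A, whereas 0 of the 6 with C held one. Some pairs reuse a CD103hi chain, such as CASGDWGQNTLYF. TRBV13-2 gave 9 of the 22, TRBV12-2 4 and TRBV5 4. These features were not counted over the 245 candidate pairs. Whether they are particular to near-identical chains was thus not tested. In 6 of the 22 both chains had at least 10 reads.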

How the data were processed

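Sorted cells gave 5′ RACE libraries of Tcrb transcripts, per the series' design text, which were read on an Illumina MiSeq, per the labels' protocols. Which aligner, clonotype caller, segment reference, build or error correction was used is not given in the sources used here. Per the file headers, the deposited tables give a read count per clonotype, the fraction of reads (used only to check the counts), the V, D and J names and the positions of the segments in the CDR3. The WT epidermal γ chain table was not analysed here.

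Clonotypes were tallied per V, J and V-J pair. Inserted bases were CDR3 bases assigned to no segment. Reference junctions used exact matches to GENCODE M21 (GRCm38) transcripts, with a D stretch of at least 3 bases; inserted bases that happen to match are missed. Rates of near-identical chains used complete CDR3s (first residue C, last F or W), 371 distinct amino acid clonotypes in CD103hi. Segments with at least 10 clonotypes over the 7 Tcrd-/- skin libraries were tested with edgeR 4.0.16 (R 4.3.3; older quasi-likelihood fit, common dispersion, library totals, 4 groups, 3 residual degrees of freedom; Benjamini-Hochberg threshold 0.05). DESeq2 1.42.0 was an alternative. For other values an exact two-sided permutation test took each of the 4 libraries in turn as the lone one. Nothing says that the epidermal pools came from separate animals, so p-values measure only the spread between libraries. Intervals cover counting error only. The scripts were tested on simulated data. Alternatives were other weights, read minimums, scalings, fits, junction readings and left-out libraries.

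Named V segments were the 8 most used over the 4 libraries, any that passed, and the 6 with the largest log2 ratio of CD103hi to mean epidermal share (0.1 percentage points added) among those with at least 10 clonotypes; for J, the 4 largest ratios. Also named were the 5 commonest CD103hi V-J pairs, the 5 largest clonotypes, chains shared with A or C, and up to 8 near-identical pairs with A and C and 5 with B by the lower read share. Of the amino acids outside the epidermal range, the 6 with the largest difference from the epidermal mean were named. Only CDR3s of at most 14 residues are printed. TRBJ2-1, the chains shared with B, direct V-J joins, loops of 14 residues and the tryptophan pair were chosen after their values were seen. The comparison, members and lists were chosen with earlier results of these data known.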

Additional observations from a re-analysis of the deposited data

How the results depend on the processing

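No paired analysis was possible because the CD103hi library carries no replicate letter. With the library set as a term, 0 segments passed. Of 152 alternatives to the values compared, 117 moved them by less than the spread between epidermal libraries, the counting interval of the rate or, for counts of segments, not at all, and 35 by more; where no construction shows it, the cause was not tested. Differences are CD103hi minus the epidermal mean. TRBV segments passing edgeR went from 0 to 1 with the newer fit and with at least 2 reads, and were 0 to 1 when each epidermal library was left out (1 without A). For TRBJ, leaving out each gave 0 to 1 (1 without C). The share without insertions (1.69 points) was -12.6 by reads, -7.95 with at least 2 reads, -12.9 with at least 10, and -6.62 with at least 10 by reference junctions. Inserted nucleotides (-0.51) were 0.133 by reads, 0.314 with at least 10 reads, 0.0463 in the 72 largest clonotypes, 0.0991 by reference junctions and 0.700 with both reference junctions and at least 10 reads. CDR3 length (0.126) was -0.0427 by reads, 0.368 with at least 2 reads, 0.362 with at least 10, 0.217 without trace clonotypes and 0.0411 without TRBV5. V trimming (-0.58) was -0.861 by reads, -0.992 in the 72 largest and 0.0702 by reference junctions. J trimming (-0.37) was -0.153 with at least 10 reads and 0.0596 when read from the reference as well. Similarity of V use (-0.178) was -0.0622 by reads, -0.0494 as 1 minus the Jensen-Shannon divergence, -0.0857 without TRBV5 and -0.217 to -0.141 when each epidermal library was left out. Similarity of J use (0.0549) was -0.0449 to 0.141 when each was left out, the lowest without C. The near-identical rate with A and C (89.8 per 1000) was 33.8 with insertions and deletions allowed and 2.71 over any V and J. With B (65.2) it was 23.7 and 3.35 in those settings, 111 with at least 2 reads and 148 with at least 10. Hydropathy kept its sign in 12 of 12 alternatives (-0.47 to -0.24), and similarity of V-J pairs in 8 of 11. Settings with 10 reads by reference junctions, 10 reads for rates, without near copies or without TRBV5 were added after seeing the data. The single CD103hi library, its 31823 reads and the 72 clonotypes of epidermal C limit what could be detected.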
